A study of Homo sapiens with 17 samples.

Results

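Alpha satellite, annotated as ALR/Alpha, is the repeat that builds human centromeres, and its counts were followed by chromosome and by array length in senescent fibroblasts with and without knockdown of SMARCA4, a catalytic subunit of SWI/SNF, which remodels chromatin. Members were all repeat rows with the subfamily name ALR/Alpha, 1541 of the 4748242 repeat rows counted. They lay on 24 chromosomes, covered 70.8 Mb and ranged from 15 bp to 2.49 Mb, with a median of 5999 bp. The cells were IMR90 ER:RAS, a human lung fibroblast line in which 4-hydroxytamoxifen (4OHT) switches on an oncogenic RAS fused to an estrogen receptor domain and so drives oncogene-induced senescence. Libraries came from cells given DMSO and the non-targeting siNT (n = 5), 4OHT and siNT (n = 6) or 4OHT and siSMARCA4 (n = 6), with the siRNA delivered before 4OHT and RNA taken at day 7. All 17 carried the same RAS construct, and siSMARCA4 was not given to DMSO cells, so the knockdown was compared only within 4OHT. The labels give each library a number after the siRNA name, 2 or 4, called the siRNA number here, and a tag ending in V or VM. They state neither what the tag means nor whether a number stands for the same thing under siNT and siSMARCA4. Nothing says that libraries of a group were separate cultures, so p-values measure the spread between these libraries, which may be technical.

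Human centromeres are made of tandem monomers of alpha satellite, which in active arrays are grouped into higher-order repeat units that recur with little change over megabases. CENP-A, the histone H3 variant that marks the active centromere, sits on these arrays, and CENP-B binds a short motif in some of the monomers, the CENP-B box. Transcripts of the arrays are normally scarce and are mostly known as nuclear RNAs, which a library selected for poly(A) tails, as here, would capture only in part. Because copies of a unit are nearly identical, a read pair from one array often matches many rows. The counts used here share such a pair, by a likelihood estimate, among the alignments kept for it, which the authors capped in number.

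Monomers of 5 chromosomes are shown so that copies with and without a CENP-B box can be compared. They lie in the most counted row over 50 kb of each chromosome, which held 1430 counts on chromosome 19, 691 on 20, 385 on 13, 94 on X and 99 on Y. Each line holds one 171-base monomer from GRCh38, plus strand, in lower case with the CENP-B box in capitals, searched by its consensus on both strands. The monomer length is the lag, within a limited range around it, at which the first 20000 bases of the 150 rows over 50 kb matched themselves best. At that lag 52.2% of bases were the same, and longer lags were not searched. The windows start at 19:24908818-24908988, 13:16282813-16282983, 20:27301908-27302078, X:59068158-59068328 and Y:10323204-10323374, and all lie outside annotated genes.
chromosome 19: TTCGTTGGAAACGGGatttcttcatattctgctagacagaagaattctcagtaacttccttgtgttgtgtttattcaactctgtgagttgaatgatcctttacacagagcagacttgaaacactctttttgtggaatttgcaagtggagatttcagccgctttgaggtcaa
chromosome 13: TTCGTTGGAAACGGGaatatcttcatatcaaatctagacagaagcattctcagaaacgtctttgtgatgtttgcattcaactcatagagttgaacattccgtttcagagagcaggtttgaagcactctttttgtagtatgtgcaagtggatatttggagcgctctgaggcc
chromosome 20: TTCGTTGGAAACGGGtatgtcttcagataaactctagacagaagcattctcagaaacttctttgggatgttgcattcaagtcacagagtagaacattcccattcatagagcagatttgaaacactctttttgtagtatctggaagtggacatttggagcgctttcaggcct
chromosome X: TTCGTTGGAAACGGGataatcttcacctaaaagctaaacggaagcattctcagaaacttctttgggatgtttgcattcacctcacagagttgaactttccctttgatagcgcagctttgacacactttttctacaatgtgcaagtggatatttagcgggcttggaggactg
chromosome Y: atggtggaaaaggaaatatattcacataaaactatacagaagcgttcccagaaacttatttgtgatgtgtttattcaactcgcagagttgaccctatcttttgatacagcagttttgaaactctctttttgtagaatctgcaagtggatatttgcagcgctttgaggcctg
After global alignment the monomer of chromosome 13 shared 79.5% of its bases with that of chromosome 19, the monomer of chromosome 20 shared 78.9%, that of chromosome X 74.3% and that of chromosome Y 76.0%. The first 4 hold a box by choice, since only windows starting at one were taken there. The last does not, as its row has none. The chromosome 19 window was the first of its kind in its row. The others were picked for likeness to it within the first 20000 bases of their rows. The shares above are therefore high values and not typical ones.

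The box was nearly confined to these rows. Of all matches in GRCh38, 137895 lay in ALR/Alpha and 816 elsewhere, or 1949 against 0.285 per Mb. It occurred in 447 of the 1541 rows (29.0%), most often at a spacing of 340 bases, 2 monomers, and 98.1% of spacings were within 10 bases of a multiple of 171. By chromosome the rows held between 1.51 boxes per kb on chromosome 15 and 2.69 on chromosome 18, apart from chromosome Y, whose rows held 0. Rows in arrays of 1 Mb or more held 2.31 boxes per kb and those in arrays of 100 kb to 1 Mb held 0.208.

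Some of these sequences are repeated without any change in GRCh38, whose centromeres are modelled. The longest such row, 2282183 bp, occurs with identical letters on chromosome 1 (122503250-124785432), chromosome 5 (47309187-49591369) and chromosome 19 (24908692-27190874), and it was the most counted row of each of them. A row of 1134209 bp is identical on chromosomes 13, 14, 21 and 22, as is one of 632583 bp. In all, 43 rows over 10 kb belonged to 13 sets of identical rows, and together they held 21.9% of the ALR/Alpha counts. Counts on such rows cannot be assigned to one chromosome of a set from sequence, so values for chromosomes 1, 5 and 19 and for 13, 14, 21 and 22 are also given joined.

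Library totals, genes and repeats together, ran from 39109479 to 68978119 counts, of which repeats took 1.35% to 1.93%. SMARCA4, the targeted gene, fell from 259.6 to 87.4 CPM (counts per 1000000 counts of the library) with siSMARCA4 in 4OHT, a log2 fold change of -1.61 (SE 0.13), with no overlap between groups. By siRNA number its levels overlapped, with 70.0, 101 and 78.3 CPM for number 2 and 125, 68.1 and 81.6 CPM for number 4. Of the markers checked against the fibroblast label, COL1A1, COL1A2, COL3A1, VIM, THY1 and PDGFRB summed to between 7446 and 28091 CPM in single libraries. In 4OHT the fibroblast sum was 14724 ± 1549 CPM under siNT and 9113 ± 1122 CPM under siSMARCA4 (n = 6 each, SD), and in DMSO it was 26072 ± 2098 CPM (SD, n = 5). The epithelial markers EPCAM, CDH1, KRT8 and KRT18, with CDH1 at or below 1 CPM in every library, summed to 85.4 ± 9.57 CPM in DMSO, 69.7 ± 7.72 CPM in 4OHT siNT and 49.9 ± 9.12 CPM in siSMARCA4 libraries (SD), and the last 2 groups did not overlap. PECAM1, CDH5 and VWF, which mark endothelium, summed to 1.18 ± 0.453, 4.58 ± 0.701 and 2.96 ± 0.992 CPM in the same order (SD), with no overlap between DMSO and 4OHT siNT. Their part in the results below was not tested.

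The whole of ALR/Alpha was rare in every group and highest with siSMARCA4. Over the 17 libraries it took 25864 counts, on 945 of the 1541 rows, and 212 rows had 10 or more. In DMSO the libraries stood at 13.96, 38.2, 6.44, 12.8 and 48.0 CPM. In 4OHT with siNT they stood at 8.19, 9.82, 10.6, 4.17, 20.4 and 17.2 CPM. In 4OHT with siSMARCA4 they stood at 67.4, 54.6 and 113 CPM for number 2 and at 24.7, 25.3 and 17.05 CPM for number 4. Only the lowest siSMARCA4 library, 4-3V, fell within the range of 4OHT siNT, while DMSO overlapped both other groups.

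Against siNT in 4OHT the total rose with siSMARCA4 by 2.06 on the log2 scale (SE 0.52, adjusted p 0.0126 in edgeR), or 4.18-fold, from 11.7 ± 6.01 to 50.4 ± 36.5 CPM (SD, n = 6 each). Within VM libraries alone, which are all 6 of siNT and 3 of siSMARCA4, the log2 fold change was 2.51 (adjusted p 0.0219 in edgeR). Those 3 were 2-1VM, 2-3VM and 4-2VM, at 67.4, 113 and 25.3 CPM, so number 2 weighed more there than in the whole group. Scaled by repeats in place of all rows the log2 fold change was 1.77 (adjusted p 0.0531 in edgeR). Within siRNA number 2 it was 2.61 (adjusted p 0.0639 in edgeR) and within number 4 it was 1.04 (adjusted p 0.296 in edgeR), neither called. Among all subfamilies 19.4% were called higher in this comparison. With 4OHT against DMSO in siNT the total was 11.7 ± 6.01 against 23.9 ± 18.1 CPM (SD, n = 6 and 5), the log2 difference being -0.93 (SE 0.53, adjusted p 0.270 in edgeR), which was not past the threshold, where 6.73% of all subfamilies were called lower. The ALR/Alpha share of repeat counts was 0.289 ± 0.206% with siSMARCA4, 0.0814 ± 0.0432% with siNT in 4OHT and 0.147 ± 0.102% in DMSO (SD).

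Counts on sparse repeats, rows that lie more than 50000 bp from any gene, are no satellites and had at most 20 counts over all libraries, moved with the same groups. In siSMARCA4 libraries these rows amounted to 113 ± 48.1 CPM, in 4OHT siNT to 55.1 ± 10.97 CPM and in DMSO to 75.1 ± 36.0 CPM (SD), and the first 2 groups did not overlap. These rows were used because they had moved with the groups in earlier results of these data. The ratio of ALR/Alpha to sparse counts had a geometric mean of 0.385 with siSMARCA4 and 0.192 with siNT in 4OHT. That is a log2 difference of 1.01 (2-sided exact permutation p 0.0130, n = 6 each), though the groups overlapped. It was 1.35 within siRNA number 2 (exact permutation p 0.1) and 0.67 within number 4 (exact permutation p 0.2). Between 4OHT and DMSO the log2 ratio differed by -0.48 (2-sided exact permutation p 0.177). With the log2 sparse count as a covariate the fitted rise of ALR/Alpha with siSMARCA4 was 0.21 (adjusted p 0.691 in edgeR). What the sparse counts stand for was not tested.

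**Figure D1:**
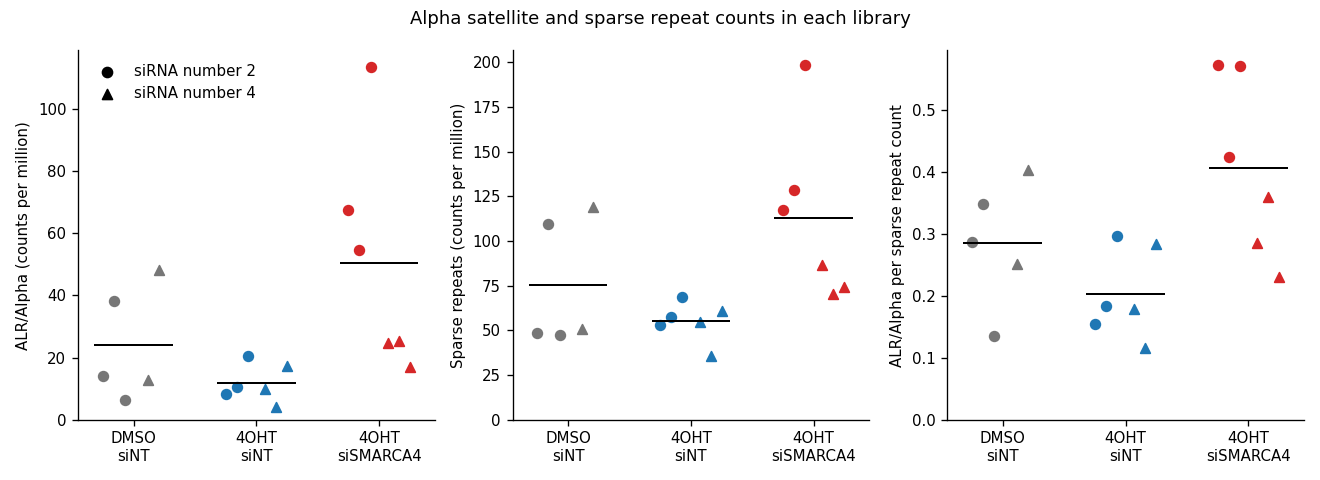
ALR/Alpha CPM, sparse repeat CPM and the ratio of the 2 in each library, by group, with circles for siRNA number 2 and triangles for number 4 and a line at the group mean. The 3 highest ALR/Alpha libraries are siSMARCA4 number 2, at 54.6 to 113 CPM.

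By chromosome, ALR/Alpha was higher with siSMARCA4 almost everywhere. Of 24 chromosome sums 23 had enough counts to be tested, and 19 rose and 0 fell, where 12.2% of all sums of a subfamily on a chromosome were called higher. All 23 fitted changes were positive, from 1.46 to 3.16 on the log2 scale with a median of 2.06, while the median over all repeat sums tested was 0.29. In CPM the 2 groups were separate only on chromosomes 13 and 15. The share of all such sums with separate groups was not computed, so this count has no background beside it. Chromosome Y, with 118 counts in all libraries, did not pass the filter and was not tested. Whether its counts came from chromosome Y at all was not tested either. Without siSMARCA4 2-3VM 3 of 23 chromosomes were called, without siNT 4-2VM 10, without siNT 2-1VM or siSMARCA4 2-1VM 11, and without siNT 2-2VM or siSMARCA4 2-3V 12. With scaling by repeats 11 were called, in VM libraries only 9, within siRNA number 2 alone 1 and within number 4 alone 0. With the log2 sparse count as a covariate edgeR called 0 of 23, and 0 had an unadjusted p under 0.05.

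The fitted value was largest on chromosome 13, whose main rows are identical to rows of chromosomes 14, 21 and 22, so it does not set this chromosome above those. Its sums in 4OHT siNT were 0.342, 0, 0.0868, 0.0345, 0.0511 and 0.326 CPM, and with siSMARCA4 they were 2.76, 1.62, 2.11, 0.667, 0.521 and 0.477 CPM. The lowest siSMARCA4 library was above the highest siNT library, and the log2 fold change was 3.16 (SE 0.71, adjusted p 0.0134 in edgeR). Joined with chromosomes 14, 21 and 22 the 2 groups overlapped, with siNT up to 1.94 CPM and siSMARCA4 from 1.26 CPM. The separation was thus not seen for the set of chromosomes that share these rows. In DMSO chromosome 13 ran from 0.148 to 1.71 CPM and so overlapped both groups. Chromosome 15 rose from 0.298 ± 0.112 to 1.66 ± 1.43 CPM (SD, n = 6 each; 2.42, SE 0.54, adjusted p 0.0130 in edgeR), with siNT libraries at 0.152 to 0.435 CPM and siSMARCA4 libraries at 0.572 to 4.36 CPM.

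Chromosomes 20, 19 and 6 held the most counts with siSMARCA4, though most counts of chromosome 19 lie on the row with identical copies on chromosomes 1 and 5, so its place is not fixed. Chromosome 20 had a lowest, median and highest value of 0.276, 0.887 and 1.71 CPM with siNT in 4OHT and of 1.70, 3.67 and 10.2 CPM with siSMARCA4, so that the groups overlapped only at 1.70 to 1.71 CPM (2.19, SE 0.57, adjusted p 0.0232 in edgeR). On chromosome 19 the same values were 0.342, 0.604 and 1.66 CPM and 1.03, 2.74 and 7.47 CPM (2.23, SE 0.56, adjusted p 0.0202 in edgeR). Chromosome 6 went from 0.293, 0.590 and 1.27 CPM to 1.09, 2.78 and 7.65 CPM (2.22, SE 0.56, adjusted p 0.0210 in edgeR). On each of these chromosomes number 2 gave the 3 highest siSMARCA4 values.

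Chromosomes 1, 9, 14 and 21 were not called. Their log2 fold changes were 1.84 (SE 0.65, adjusted p 0.0651), 1.46 (SE 0.51, adjusted p 0.0618), 1.65 (SE 0.76, adjusted p 0.149) and 2.15 (SE 0.72, adjusted p 0.0531). Leaving out 1 library, the value of chromosome 14 ran from 0.75 to 1.96. The differences between chromosomes were not tested. Summed over all rows of chromosomes that share identical rows, chromosomes 1, 5 and 19 together went from 2.02 ± 1.07 to 9.01 ± 6.57 CPM (2.10, SE 0.53, adjusted p 0.0203 in edgeR), and chromosomes 13, 14, 21 and 22 from 0.991 ± 0.601 to 4.86 ± 3.92 CPM (SD, n = 6 each; 2.24, SE 0.55, adjusted p 0.0186 in edgeR). Both joined sums were called, so the uncalled values of chromosomes 1, 14 and 21 lie in sets that rose as a whole.

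**Figure D2:**
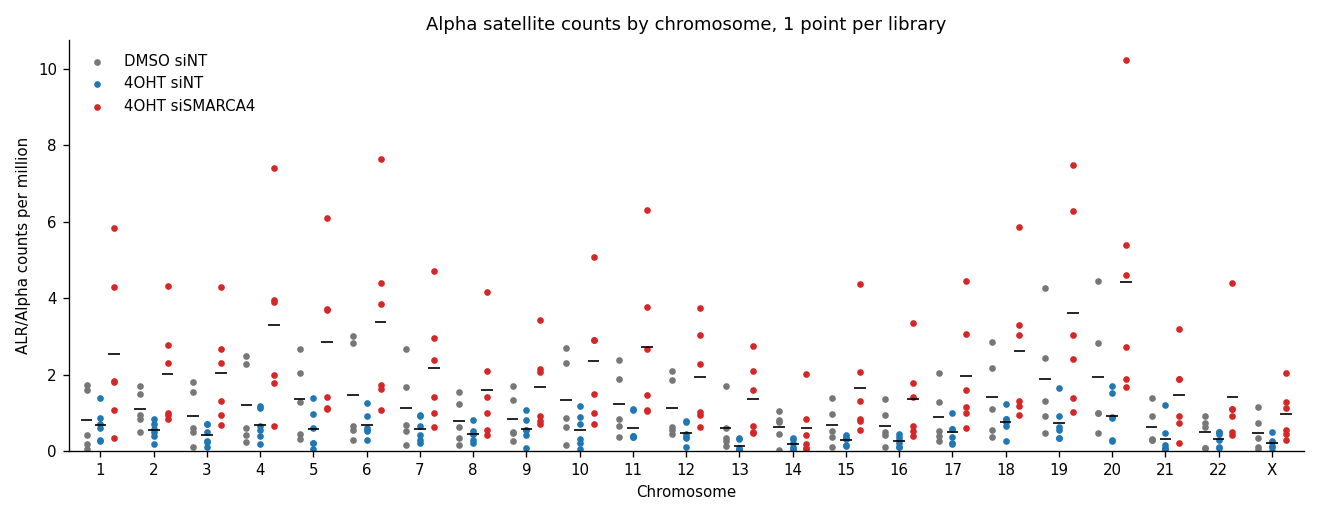
ALR/Alpha CPM of each library on the 23 tested chromosomes, with 1 point per library coloured by group and a line at each group mean. Chromosome 20 reaches 10.2 CPM in 1 siSMARCA4 library, while 4OHT siNT libraries stay at or below 1.71 CPM on every chromosome.

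With 4OHT against DMSO in siNT no chromosome was called by edgeR, 6 had an unadjusted p under 0.05, and DESeq2 also called 0, where 6.83% of all sums of a subfamily on a chromosome were called lower. All 23 fitted changes were negative, from -2.05 on chromosome 13 (SE 0.74, adjusted p 0.0668) to -0.19 on chromosome 1 (SE 0.69, adjusted p 0.901), and the DMSO and 4OHT libraries overlapped on every chromosome. Since both of these have main rows with identical copies, the joined values are also given, -1.22 (SE 0.56, adjusted p 0.158) for 13, 14, 21 and 22 and -0.94 (SE 0.54, adjusted p 0.269) for 1, 5 and 19. By edgeR 4 chromosomes were called with a block for the shared replicate tag and 2 within siRNA number 4. Scaling by repeats, no filter and a V or VM covariate gave 1 each. On chromosome 19 the DMSO libraries stood at 0.922, 2.45, 0.494, 1.32 and 4.27 CPM. DMSO 2-2V and 4-3VM were the 2 highest of their group on chromosome 19, as in the total.

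**Figure D3:**
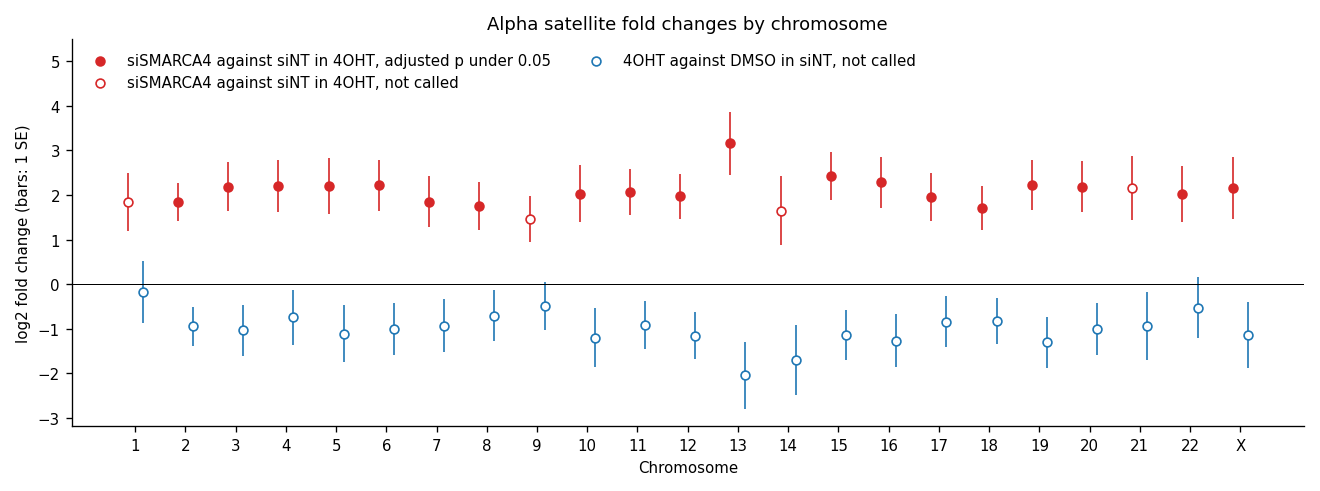
Fitted log2 fold changes of the ALR/Alpha sum on each of 23 chromosomes, with bars of 1 SE, for siSMARCA4 against siNT in 4OHT and for 4OHT against DMSO in siNT, and filled points for an adjusted p under 0.05. All 23 values lie above 0 in the first comparison, 19 of them called, and all 23 lie below 0 in the second, none called.

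Each chromosome's share of ALR/Alpha overlapped between siSMARCA4 and siNT. Chromosome 20 took the largest share of ALR/Alpha counts with siSMARCA4, 8.97 ± 1.19%, against 7.51 ± 2.06% with siNT in 4OHT, and in DMSO chromosome 19 took 7.99 ± 1.65% (SD), where its main row held 50.7% of the counts of 3 identical copies. The largest difference between siSMARCA4 and 4OHT siNT in mean share was 1.77 percentage points, on chromosome 18 (5.21 ± 0.374% against 6.99 ± 1.82%). Between 4OHT and DMSO in siNT the largest was 3.55 points, on chromosome 1 (6.33 ± 2.94% against 2.78 ± 1.39%), a chromosome whose main row has identical copies. Over 24 chromosomes the mean shares of siSMARCA4 and 4OHT siNT had a Pearson's r of 0.89, given as a description, as both rest on the same reference sequences.

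Counts per Mb ran over a wide range between chromosomes, and these differences were not tested. For chromosomes with identical rows, 19 among them, the values rest on how pairs were shared. Summed over libraries, chromosome 6 had 1084 counts per Mb of annotated ALR/Alpha, chromosome 4 had 752, chromosome 20 had 717 and chromosome 19 had 579. The lowest was chromosome X with 113 counts per Mb. Chromosome 6 was highest and chromosome X lowest in each of the 3 groups as well, while the order between them differed by group. Chromosome 18 has the longest array, 5.40 Mb, and 265 counts per Mb. Across 24 chromosomes the annotated length had a Pearson's r of 0.34 with total counts (Spearman's rho 0.32) and the density of CENP-B boxes had one of 0.10 with counts per Mb (rho 0.070). Without chromosome Y these were 0.17 (rho 0.23) and 0.047 (rho 0.041) over 23 chromosomes. Length and counts per Mb had an r of -0.35 (rho -0.27), or -0.46 (rho -0.33) without chromosome Y, with the reference sequence and the sharing of pairs common to all points.

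**Figure D4:**
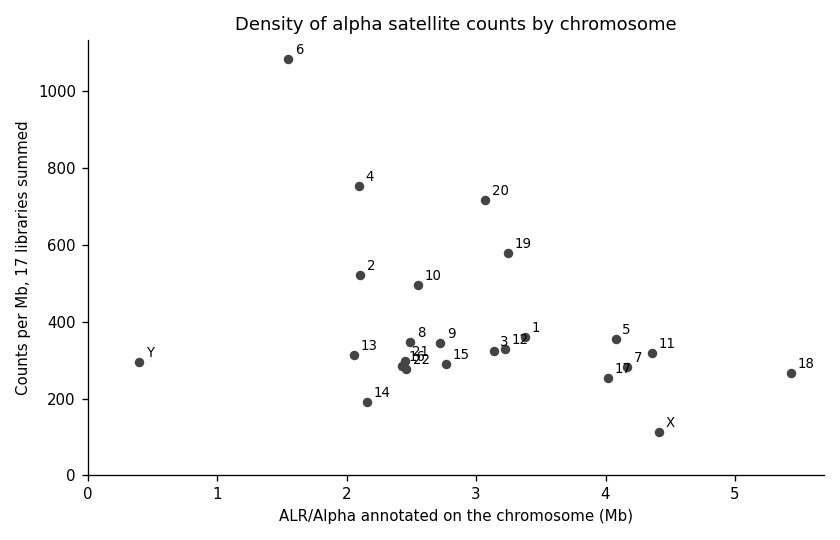
ALR/Alpha counts per Mb, summed over 17 libraries, against the annotated ALR/Alpha length in Mb, with 1 point per chromosome. Chromosome 6 stands highest at 1084 counts per Mb and chromosome X lowest at 113.

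The identical rows show how copies shared their counts. Of 3332 counts on the 2282183-bp row, chromosome 19 held 42.9% (95% Wilson interval 41.2% to 44.6%, counting error only), chromosome 5 held 28.6% and chromosome 1 held 28.5%, where equal copies would hold 33.3% each. In DMSO chromosome 1 held 18.4% of them and in 4OHT siNT 36.4%. Of 1306 counts on the 1134209-bp row, chromosome 14 held 43.2% in DMSO, 19.7% in 4OHT siNT and 11.1% with siSMARCA4, and chromosome 13 held 27.7%, 14.6% and 33.1%. These shifts lie between letters that are the same, so they are no measure of one chromosome against another.

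Joined over gaps of at most 10 kb, the rows formed 258 arrays, and the longest arrays held most counts. The 23 arrays of 1 Mb or more, 1 on each chromosome but Y, covered 58.5 Mb, 82.7% of the length, and took 22129 counts, 85.6% of all. The 43 arrays of 100 kb to 1 Mb took 2521 counts, the 77 of 10 to 100 kb took 1082, the 24 of 1 to 10 kb took 85 and the 91 under 1 kb took 47. Outside genes lay 1420 rows with 99.3% of the counts, 99 rows lay in introns with 66 counts and 22 rows overlapped exons with 125 counts.

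All 3 length classes with enough counts rose with siSMARCA4, where 19.4% of all sums of a subfamily in a length class were called higher. Arrays of 1 Mb or more had a lowest, median and highest value of 3.33, 8.48 and 17.2 CPM with siNT in 4OHT and of 13.9, 34.3 and 98.4 CPM with siSMARCA4 (2.10, SE 0.53, adjusted p 0.0136 in edgeR). Arrays of 100 kb to 1 Mb went from 0.448, 1.02 and 2.15 CPM to 2.08, 4.12 and 9.68 CPM (1.96, SE 0.52, adjusted p 0.0153 in edgeR). Arrays of 10 to 100 kb went from 0.345, 0.631 and 0.972 CPM to 0.915, 1.45 and 4.62 CPM (1.495, SE 0.41, adjusted p 0.0184 in edgeR). In each class the groups overlapped, and the differences between classes were not tested. With scaling by repeats 1 of the 3 classes was called, and 0 were called with the sparse covariate, within siRNA number 2 or within number 4. Against DMSO, 4OHT siNT gave -0.95, -1.08 and -0.52 in the same order, none called by edgeR (0 of 3 had an unadjusted p under 0.05, and DESeq2 also called 0), where 7.24% of all such sums were called lower.

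The 10 most counted arrays held 52.9% of ALR/Alpha counts. They were those on chromosome 20 (26436235-28556953, 1937 counts), 6 (58553892-59829934, 1628), 19 (24498984-27190874, 1603), 4 (49708101-51743951, 1549), 18 (15460902-20861206, 1426), 5 (46485905-49599391, 1161), 1 (122026462-125063315, 1141), 11 (51078351-54425074, 1120), 10 (39686687-41593521, 1093) and 2 (92188148-94090556, 1013). On each of them the siSMARCA4 and 4OHT siNT libraries overlapped. The array of chromosome 6 was the densest of the 10, with 1276 counts per Mb against 265 on chromosome 18, and it went from 0.656 ± 0.340 CPM with siNT to 3.29 ± 2.37 CPM with siSMARCA4 in 4OHT (SD, n = 6 each).

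Single rows were at the edge of what these libraries could resolve. Of 1541 rows 48 passed the filter on low counts, with 68.2% of the ALR/Alpha counts, and the filter favours rows that are high with siSMARCA4. Of the 48, 26 passed only with the siSMARCA4 libraries counted. With siSMARCA4, 12 were called higher and 0 lower, on chromosomes 4, 6, 9, 10, 12, 13, 15, 19 and 20, where 4.36% of all repeat rows were called higher, but 5 of the 12 had passed the filter only through siSMARCA4. DESeq2 called 20, and 0 were called with the sparse covariate, within siRNA number 2 or within number 4. The count also rested on single libraries: 1 row was called without siSMARCA4 2-3VM or 2-1VM or without 4OHT siNT 4-1VM or 4-2VM, 2 without siNT 2-1VM, 3 without siSMARCA4 2-3V, 5 without siNT 2-2VM and 20 without siSMARCA4 4-3V. With 4OHT against DMSO, 2 were called lower and 0 higher, where 9.33% of all repeat rows were called lower. Both had passed the filter only through siSMARCA4, and leaving out 1 library gave between 1 (without DMSO 2-2V or 4-3VM) and 6 (without DMSO 2-2VM), with 5 without siNT 2-3VM and 4 without siNT 4-3VM.

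The 2 called rows whose libraries did not overlap were on chromosomes 15 and 12, and both had passed the filter only through siSMARCA4, so their counts are given as a description. The row at 15:18979949-19725253, in a 2.73-Mb array outside genes, had 0, 6, 9, 0, 0 and 11 counts with siNT in 4OHT and 46, 25, 111, 14, 18 and 12 with siSMARCA4. The row at 12:36673590-36779839 had 0, 0, 2, 0, 6 and 5 counts with siNT and 19, 24, 18, 14, 11 and 14 with siSMARCA4, and its counts with siSMARCA4 varied less between siRNA numbers than those of the chromosome 15 row. In DMSO it had 2, 14, 7, 11 and 31 counts, and it was 1 of the 2 rows called lower with 4OHT. The other lower row, at 6:59521670-59818634, went from 8, 23, 0, 13 and 10 counts in DMSO to 0, 0, 2, 3, 0 and 4 in 4OHT siNT, with overlap. With siSMARCA4 it had 20, 24, 20, 24, 1 and 24 counts, and it too had passed the filter only through that group. These last 2 rows were named after their values were seen for the DMSO comparison, since no row met the rule there.

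Among the 10 most counted rows, 6 were called with siSMARCA4, where 4.36% of all repeat rows were called higher, but these rows were picked on counts of which siSMARCA4 gave the most, so nothing is read from that share. These calls belong to the 12 that leaving out 1 library took to as few as 1. The row at 19:24908692-27190874, with 1430 counts, had a lowest, median and highest count of 15, 20.5 and 53 with siNT in 4OHT and of 39, 128 and 295 with siSMARCA4 (2.28, SE 0.59, adjusted p 0.0293 in edgeR), so the groups overlapped. Its identical copies on chromosomes 5 and 1 had 952 and 950 counts and were not called, at 2.20 (SE 0.78, adjusted p 0.0959) and 1.85 (SE 0.70, adjusted p 0.118). The copy on chromosome 5 had 1, 0, 45, 5, 10 and 65 counts in the 6 siNT libraries of 4OHT, and the part of pair sharing in this spread was not tested. The other 5 called rows were at 6:59439699-59521655 (2.23, SE 0.58), 4:50475606-51107157 (2.34, SE 0.60), 20:27296101-27504366 (2.24, SE 0.64), 20:27048293-27295535 (2.25, SE 0.66) and 9:43389638-44850753 (1.95, SE 0.55). Those at 6:58553892-59439414 and 3:91891682-93470261 were not called (2.30, SE 0.75, and 2.02, SE 0.66).

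The 2 siRNA numbers stood apart in these libraries, though the direct test of their difference, given below, was not called. Their tags differed too, with 1VM, 3V and 3VM for number 2 and 2V, 2VM and 3V for number 4. Number 2 gave 78.4 ± 30.8 CPM of ALR/Alpha and number 4 gave 22.3 ± 4.60 CPM (SD, n = 3 each), without overlap. Against all 6 siNT libraries of 4OHT, which carry both numbers, the 3 of number 2 were higher in the total by 2.70 (SE 0.50, adjusted p 0.00905 in edgeR) and on all 23 tested chromosomes, where 9.67% of all sums of a subfamily on a chromosome were called higher. Against the siNT libraries of number 2 alone the total gave 2.61 (adjusted p 0.0639 in edgeR), which was not called, and 1 of 23 chromosomes was called. Number 4 gave 0.90 (SE 0.51, adjusted p 0.278 in edgeR), and edgeR called 0 of 23 chromosomes, 2 having an unadjusted p under 0.05 (no second tool was run), where 0.422% of all such sums were called higher. Its fitted values ran from -0.61 on chromosome 14 to 1.87 on chromosome 13, and 22 of 23 were positive.

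Tested directly, the difference between the numbers was 1.80 in the total (SE 0.61, unadjusted p 0.00898 by edgeR, adjusted p 0.984). By chromosome it ran from 1.66 to 3.12, all 23 had an unadjusted p under 0.05 by edgeR and 0 were called, with the lowest adjusted p at 0.857 (no second tool was run). Number 2 lay above number 4 in every library on 23 of 24 chromosomes, the exception being chromosome 1. The share of all sums of a subfamily on a chromosome that separated likewise was not computed. These sums also share read pairs, so nothing further is read from that count. Sparse repeats split the same way, with 117, 129 and 198 CPM for number 2 and 86.4, 70.6 and 74.2 CPM for number 4, and the part of this split in the chromosome values was not tested.

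**Figure D5:**
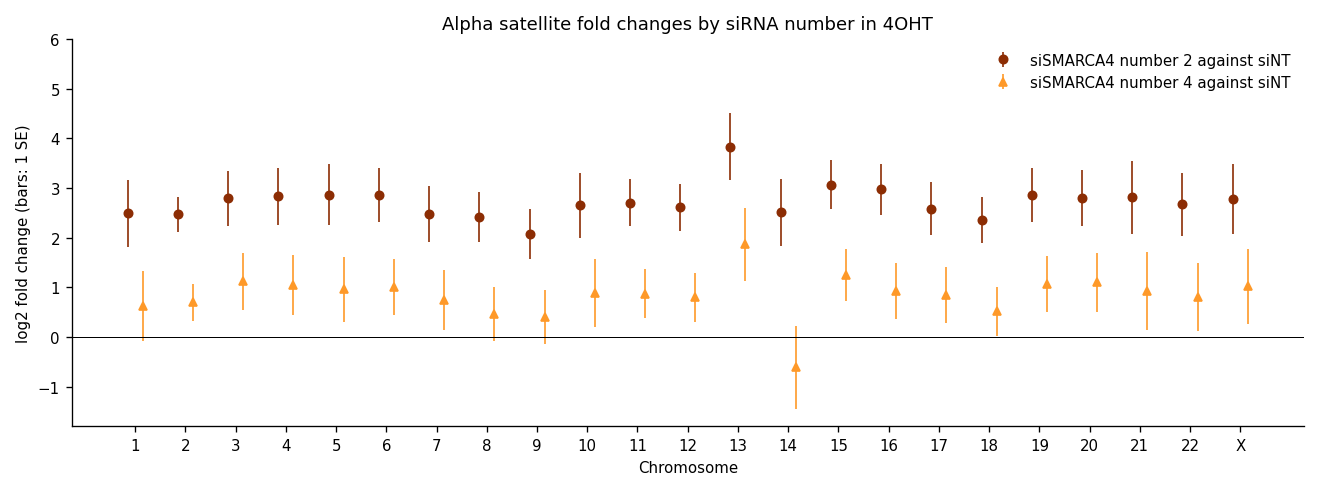
Fitted log2 fold changes against 4OHT siNT on each of 23 chromosomes for the 3 siSMARCA4 libraries of number 2 and the 3 of number 4, with bars of 1 SE. Number 2 runs from 2.07 to 3.84 and number 4 from -0.61 to 1.87.

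Transcripts of proteins that bind or build the centromere mostly fell with 4OHT, and some rose with siSMARCA4. Of 22 listed genes, 19 fell and 0 rose with 4OHT against DMSO, where 27.4% of genes were called lower. CENPA, which encodes the centromeric histone, was at 7.08 CPM in DMSO, 1.42 CPM in 4OHT siNT and 1.54 CPM with siSMARCA4 (means; -2.20, SE 0.15, for 4OHT and 0.08, SE 0.15, adjusted p 0.753 in edgeR, for siSMARCA4). The largest falls with 4OHT were in CENPM (-4.40, SE 0.21), HJURP, the CENP-A chaperone (-4.19, SE 0.19), and CENPE, a kinetochore motor (-3.93, SE 0.19). With siSMARCA4 7 rose and 1 fell, where 10.4% of genes were called higher and 13.8% lower. The rises were led by CENPM (1.16, SE 0.21), CENPK (0.82, SE 0.12) and HJURP (0.73, SE 0.18). Mean CPM of 4OHT siNT, siSMARCA4 and DMSO was 0.239, 0.560 and 5.57 for CENPM and 1.14, 2.07 and 8.55 for CENPK. For HJURP it was 0.854, 1.46 and 16.9, with overlap between 4OHT siNT and siSMARCA4. CENPB, which binds the box, was not called in either comparison (0.20, SE 0.09, with 4OHT and -0.12, SE 0.09, with siSMARCA4), and CENPC, which links CENP-A to the kinetochore, fell by 0.78 (SE 0.18) with 4OHT and gave 0.34 (SE 0.17, adjusted p 0.157 in edgeR) with siSMARCA4.

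Of 15 genes for heterochromatin and DNA methylation around centromeres, 10 fell and 2 rose with 4OHT, with 27.4% of genes called lower and 27% higher. The largest falls were in CDCA7 (-5.41, SE 0.31) and HELLS (-2.58, SE 0.14), which together remodel chromatin for DNA methylation, and UHRF1, which recruits DNMT1 (-1.50, SE 0.11). With siSMARCA4 1 rose and 1 fell of the 15, counts near the share of all genes (10.4% higher and 13.8% lower) that say nothing about the list. CBX3, an HP1 protein, rose by 0.41 (SE 0.12, adjusted p 0.0196 in edgeR) and DNMT1, the maintenance DNA methyltransferase, fell by 0.27 (SE 0.09, adjusted p 0.0318 in edgeR), both with overlap between the groups. Fewer transcripts per cell and fewer cells that transcribe an array cannot be told apart in bulk RNA.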

How the data were processed

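RNA of 17 libraries was selected for poly(A) tails and sequenced in pairs. The authors trimmed reads with cutadapt 4.7, aligned them to GRCh38 with HISAT2 2.2.1 keeping multiple alignments and deposited the estimated counts of TElocal in multi mode, reverse-stranded, per Ensembl gene and per RepeatMasker row. Here whole values of these counts were summed over ALR/Alpha rows, chromosomes and arrays, the other subfamilies being summed likewise. Rows were kept by filterByExpr (minimum count 10, minimum total 15) and tested beside genes with edgeR 4.0.16 (R 4.3.3), TMM factors and 1 term per group, with Benjamini-Hochberg adjustment over repeat rows and, separately, over genes. A call is an adjusted p under 0.05. An SE is the absolute log2 fold change over the square root of F. Permutation tests were exact. Place in genes used GENCODE 44. Row coordinates are counted from 1, since 747 of 3822 full-length AluY rows began at the stated start with an Alu start sequence and 0 began 1 or 2 bases to either side. Tested on simulated data, the fit of chromosome sums for siSMARCA4 recovered 200 of 200 rows changed 4-fold among 26343, with 10 calls among the others. The simulated rows varied independently of each other, and the changed ones were drawn from the better counted rows. The simulation therefore checks the code and does not give the power or error rate for the ALR/Alpha sums. The members, gene lists and sparse rows were chosen with earlier results of these data known. Named were all chromosomes, the 10 most counted rows and arrays, the 3 largest rises and falls of called rows without overlap, SMARCA4, CENPA, CENPB, CENPC and the 3 largest called changes of each gene list. Intervals cover counting error only. Depth limits single rows most, as 1329 of the 1541 had under 10 counts in all libraries. Alternatives were DESeq2 1.42.0, other scalings and filters, covariates, subsets of libraries, other array definitions and leaving out each library. One of the marker lists is not reported here.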

Additional observations from a re-analysis of the deposited data

Results flagged for a closer look

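Of 90 sets of library values (30 sums in 3 groups), 3 held 1 library set apart by Dixon's test at 95%, and chance gives about 1 in 20. On chromosome 22 siSMARCA4 2-3VM stood at 4.40 CPM where the group median was 1.02 CPM. In arrays of 10 to 100 kb the same library stood at 4.62 CPM against a median of 1.45 CPM. In arrays of 1 to 10 kb DMSO 4-3VM stood at 0.151 CPM against a median of 0.0400 CPM, on 85 counts over all libraries.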

How the results depend on the processing

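For siSMARCA4 against siNT in 4OHT the total kept its direction in every alternative run, from 0.21 to 2.61, and lost its call with scaling by repeats (1.77), within siRNA number 2 (2.61), within number 4 (1.04) and with the sparse covariate (0.21). Scaling by repeats took the median of all repeat sums from 0.29 to 0.02. Chromosomes called, 19, came to 11 with scaling by repeats, 9 in VM libraries only, 1 within number 2, 0 within number 4 and 0 with the sparse covariate. The 3 length classes came to 1 with scaling by repeats and 0 within number 2, within number 4 and with the sparse covariate. Rows called, 12, came to 20 by DESeq2, 49 without a filter and 0 within number 2, within number 4 and with the sparse covariate. Leaving out 1 library gave 1.65 to 2.29 for the total, 3 to 22 chromosomes, 2 to 3 length classes, 1 to 20 rows and a log2 ratio to sparse counts of 0.86 to 1.15. That ratio was 1.35 within number 2 (exact permutation p 0.1, the smallest 3 against 3 can give) and 0.67 within number 4 (exact permutation p 0.2). Joining chromosomes with identical rows was chosen after seeing the data.

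For 4OHT against DMSO, chromosomes called, 0, came to 1 with scaling by repeats, without a filter and with a V or VM covariate, 2 within number 4 and 4 with the replicate block. Rows called, 2, came to 15 without a filter, 1 in VM libraries, in 2 groups only and with the sparse covariate, 0 within number 2, 5 within number 4 and 4 with the replicate block. Leaving out 1 library gave -1.20 to -0.47 for the total, 0 to 1 chromosomes, 0 length classes, 1 to 6 rows and a log2 ratio of -0.73 to -0.33, with an exact permutation p of 0.0381 without DMSO 2-2VM. With a block for the shared replicate tag the total gave 2.15 for siSMARCA4 (adjusted p 0.0187) and -1.11 for 4OHT (adjusted p 0.117), and 16 chromosomes were called for siSMARCA4. Libraries of different groups that share a label share only a number and a tag, and deviations of the 6 such pairs from their group means correlated between -0.38 and 0.33.

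Directions turned, none past the threshold. With the sparse covariate siSMARCA4 gave -0.25 on chromosome 1, -0.020 on 7, -0.29 on 8, -0.27 on 9, -0.66 on 14 and -0.13 on 18, -0.11 on the chromosome 1 row and -0.21 on 6:58553892-59439414. Chromosome 14 gave -0.47 within number 4. With the same covariate 4OHT against DMSO gave 1.00 on chromosome 1, 0.28 on 4, 0.10 on 6, 0.026 on 7, 0.16 on 8, 0.27 on 9, 0.029 on 17, 0.12 on 22, 0.095 in arrays of 10 to 100 kb, and 0.25, 0.16, 0.82 and 0.027 on rows of chromosomes 4 (50475606-51107157), 20 (27296101-27504366), 6 (58553892-59439414) and 9 (43389638-44850753). Within number 2 it gave 0.56 on chromosome 1, 0.20 on 9, 0.23 on X and 0.087 on the chromosome 9 row. Leaving out 1 library, chromosome 1 ran from -0.51 to 0.36 (0.12 without DMSO 2-2V and 0.36 without DMSO 4-3VM) and the chromosome 6 row from -1.15 to 0.11 (without DMSO 4-3VM). The row of chromosome 1 (122503250-124785432), at 0.08, gave -0.0070 with scaling by repeats, -0.87 within number 4, -0.43 with a V or VM covariate, -0.48 with the block and -0.25 to 0.72 without 1 library. The cause was not tested. Depth limits single rows most.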
